A study of Mus musculus with 2 samples.

Results

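The cryptochromes Cry1 and Cry2 are the 2 members described here, taken as the rows with those symbols among the 33757 features of a single-cell count table. Cry1 (ENSMUSG00000020038.11) lies at chr10:85131700-85185064 and Cry2 (ENSMUSG00000068742.12) at chr2:92403646-92434043, both on the minus strand, in the GRCm38 reference annotation. That annotation was used for names, lengths and overlaps only, since the counts were made on GRCm39. Cry2 overlaps D930015M05Rik on the opposite strand in it, and because the use of strand in counting is not given in the sources used here, reads of that gene and of Cry2 cannot be told apart. Cry1 overlaps no annotated gene.

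Cryptochromes are the strong repressors of the mammalian circadian clock. With PER proteins they enter the nucleus and inhibit the activator pair CLOCK and BMAL1 (gene Arntl), which drives the E-box elements of the Per, Cry, Nr1d1, Dbp and Tef genes. Cry1 carries in addition elements for the ROR activators and REV-ERB repressors, for which Nr1d1 and Nr1d2 code, and it is known for peaking later in the cycle than most E-box genes, whereas Cry2 is regarded as the paralog with the shallower rhythm.

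The cells were NIH3T3 mouse fibroblasts of the reporter line NIH3T3-Rev-VNP1-H2B-iRFP, which carries a Venus reporter named for Nr1d1 (Rev-erb alpha) and, as an H2B-iRFP fusion, a near-infrared nuclear label. Near-confluent cultures that had received no treatment and no synchronizing stimulus were sorted as single cells and sequenced with FLASH-seq, a full-length method. Plate 1 held the high iRFP sort and plate 2 the low iRFP sort, so plate and iRFP level cannot be told apart. On each plate 96 cells came from each of 4 Venus gates, called gate 1 (dimmest) to gate 4 (brightest), and each gate filled its own block of well columns, so gate and plate position cannot be told apart either. The line is a single reporter derivative, and nothing in the labels says that the plates came from separate cultures, so p-values below measure the spread between these sums of cells.

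After filtering, 762 of 768 cells remained, 383 on plate 1 and 379 on plate 2, with a median of 835930 and 857229 counts per cell. Summing cells per plate and gate gave 8 sums of 76042157 to 86612194 counts. All 8 fibroblast markers examined were detected, at 54.0 to 8556 CPM (counts scaled to the depth of each sum), while Epcam, Ptprc and Ckm were near 0. Of the other markers, the highest were Krt14 among 5 epithelial genes and Lyz2 among 4 immune genes. Krt14 reached 36.6 CPM and was found in 72.7% of cells, and Lyz2 reached 8.61 CPM and was found in 53.0%. Cdh1, also epithelial, stood at 4.15 and 5.37 CPM on plates 1 and 2. Ckm was the only 1 of 3 skeletal muscle markers matched in the table. The 3 endothelial genes matched in the table reached at most 0.51 CPM. The reporter transcript (feature YFP) rose 34.8-fold from gate 1 to gate 4 on plate 1 and 28.9-fold on plate 2.

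The promoters are shown to describe which clock elements lie just upstream of each paralog. A link between these elements and the values given below was not tested. Each line holds the 250 bases before the RefSeq start site on GRCm38.p6, minus strand, read 5′ to 3′. Cry1 spans chr10:85185055-85185304 and Cry2 spans chr2:92434070-92434319. Capitals mark matches to the E-box CACGTG or to the E′-box CACGTT, which reads AACGTG on the other strand.

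Cry1: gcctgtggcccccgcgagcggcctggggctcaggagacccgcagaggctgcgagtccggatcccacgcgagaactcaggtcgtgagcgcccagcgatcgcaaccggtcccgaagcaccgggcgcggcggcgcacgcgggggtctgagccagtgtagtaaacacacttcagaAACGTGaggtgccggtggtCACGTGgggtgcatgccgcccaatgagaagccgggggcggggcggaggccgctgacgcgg

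Cry2: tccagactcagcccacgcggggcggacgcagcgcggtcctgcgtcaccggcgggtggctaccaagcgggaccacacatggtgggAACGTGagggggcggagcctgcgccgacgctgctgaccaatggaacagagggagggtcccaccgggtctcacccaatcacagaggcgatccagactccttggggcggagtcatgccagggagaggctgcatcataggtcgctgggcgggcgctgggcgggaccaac

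Cry1 held 1 E-box, whose first base lay 60 bases upstream of the start, and 1 E′-box at 79 bases. Cry2 held 1 E′-box at 166 bases and no CACGTG. Over 32851 RefSeq promoter windows of the same length, 6.02% held the E-box and 3.85% the E′-box on either strand. Neither window held the D-box letters TTANGTAA, present in 2.06% of windows, or the RORE core TAGGTCA, present in 2.23%. These are letter matches in a short window and say nothing about elements elsewhere in either gene. The windows were GC-rich, at 71.2% for Cry1 and 68.8% for Cry2.

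The first comparison asked how the paralogs followed the clock reporter across gates. Both cryptochromes were higher in the brighter Venus gates, and Cry2 rose more steeply than Cry1. On plate 1, Cry1 stood at 11.4, 13.3, 14.1 and 15.5 CPM from gate 1 to gate 4. On plate 2 it stood at 13.3, 18.2, 17.2 and 19.0 CPM, higher than on plate 1 in each gate. Cry1 thus gained 1.35-fold and 1.43-fold between the outer gates, with a small dip from gate 2 to gate 3 on plate 2.

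Cry2 stood at 15, 18.2, 22.2 and 28.2 CPM over the gates of plate 1. On plate 2 it stood at 14.4, 20.5, 21.4 and 28.5 CPM. Cry2 stood higher at every step on both plates, 1.88-fold and 1.99-fold from gate 1 to gate 4. As means over plates, Cry1 went from 12.4 ± 1.3 to 17.3 ± 2.5 CPM and Cry2 from 14.7 ± 0.45 to 28.4 ± 0.24 CPM (SD, n = 2 plates). The lowest gate 4 value exceeded the highest gate 1 value for both genes, by less for Cry1, whose plates differed more.

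**Figure D1:**
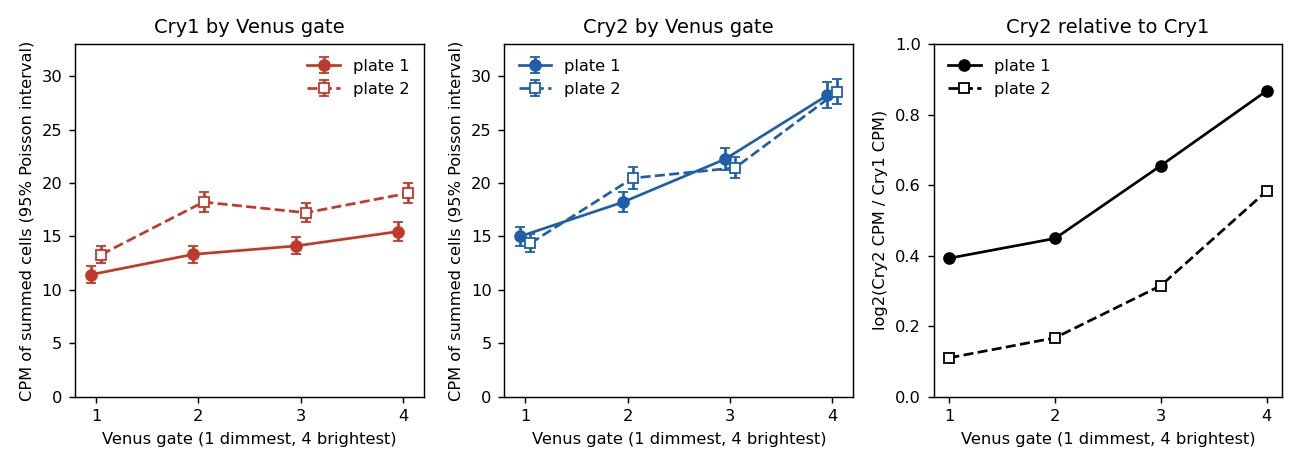
Cry1 (left) and Cry2 (middle) in CPM of summed cells, and the log2 ratio of Cry2 to Cry1 (right), against Venus gate for plate 1 (filled) and plate 2 (open); bars are 95% Poisson intervals that cover counting error only. Cry2 climbs from about 14.7 to 28.4 CPM on both plates alike, Cry1 climbs less and sits higher on plate 2, and the ratio rises at each step.

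The trend was 0.29 ± 0.03 log2 per gate step (SE) for Cry2, and in edgeR's quasi-likelihood test over 18430 genes its adjusted p was 0.00192. For Cry1 it was 0.13 ± 0.03 log2 per gate step, and the same edgeR test gave an adjusted p of 0.0350. Both members were called higher, against a background of 6.78% of tested genes called higher and 15.4% called in either direction. Over all genes 1250 were called higher and 1593 lower, and with library totals in place of TMM 1575 higher and 1152 lower, with both members called higher in that fit too. The Cry1 call is a narrow one. Its adjusted p by edgeR was 0.159 without the plate term and 0.0703 with an additive linear model, and with that model leaving out gate 1 lowered the slope to 0.046 log2 per step (adjusted p 0.644, edgeR). The Cry2 call was lost in that model without gate 4, at 0.28 log2 per step (adjusted p 0.0583, edgeR).

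No single step between neighbouring gates was called for either gene. From gate 1 to gate 2 the log2 change was 0.33 ± 0.10 for Cry1 and 0.39 ± 0.09 for Cry2 (edgeR adjusted p 0.200 and 0.134, background 0.271% of genes). From gate 2 to gate 3 it was -0.0057 ± 0.10 and 0.17 ± 0.09 (edgeR adjusted p 0.995 and 0.621, background 0.0651%). From gate 3 to gate 4 it was 0.10 ± 0.10 and 0.34 ± 0.09 (edgeR adjusted p 0.707 and 0.142, background 0.260%). Unadjusted, Cry1 and Cry2 had p-values of 0.0111 and 0.0033 for the step to gate 2, and Cry2 0.0064 for the step to gate 4 (edgeR), so these differences were larger than their errors but were not called over all genes.

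Markers of cycling cells also differed between the outer gates. The summed 20 G2/M transcripts had a median over cells of 48.1 CPM in gate 1 and 74.8 CPM in gate 4 on plate 1. On plate 2 these medians were 59.2 and 74.1 CPM, with 57.4 CPM in gate 2. For 20 S phase transcripts they went from 235 to 244 CPM on plate 1 and from 250.3 to 287 CPM on plate 2. The S phase sum did not climb at each step, with 221 and 220 CPM in gates 2 and 3 of plate 1. On plate 2 it stood at 235 and 249.9 CPM in those gates. In the 252 cells at or under their plate's median for both sums, the Cry2 trend was 0.26 ± 0.05 log2 per step (adjusted p 0.0334, edgeR). In the same cells the Cry1 trend was 0.021 ± 0.069 log2 per step (adjusted p 0.911, edgeR). These cells are fewer and the setting was chosen after the data were seen. The part of cell cycle in the Cry1 trend was not tested beyond this.

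The balance between the paralogs shifted toward Cry2 with each brighter gate. The ratio of Cry2 to Cry1 counts was 1.31, 1.37, 1.57 and 1.82 over the gates of plate 1 and 1.08, 1.12, 1.24 and 1.50 over those of plate 2. The ratio rose at all steps on both plates. The difference in slope, Cry2 minus Cry1, was 0.16 log2 per step on each plate. By an exact two-sided permutation of the gate labels inside plates its p was 0.00347, the smallest this design allows, and 0.0104 after Benjamini-Hochberg adjustment over the 3 paralog contrasts made. In the cells low in both cycling sums the difference was 0.24 log2 per step, with an adjusted p of 0.0417 by the exact permutation test.

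The order of the genes depends on length. The union of annotated exons spans 3340 bases for Cry1 and 6320 bases for Cry2. Per kilobase, Cry1 averaged 3.70 ± 0.40 CPM in gate 1 and 5.16 ± 0.76 CPM in gate 4, and Cry2 2.32 ± 0.07 and 4.49 ± 0.04 CPM (SD, n = 2 plates). On this scale Cry1 was the higher paralog in all 8 sums. These lengths join all annotated exons in GRCm38, and which isoforms the cells expressed was not examined, so the order holds for these lengths only. The ratio of Cry2 to Cry1 per kilobase went from 0.694 to 0.964 on plate 1 and from 0.571 to 0.792 on plate 2.

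Between plates the paralogs differed as well. Over all cells of a plate, Cry1 stood at 13.6 CPM on plate 1 and 16.9 CPM on plate 2, a ratio of 1.25 (95% interval 1.20 to 1.30, counting error only). Cry2 stood at 20.9 and 21.2 CPM, a ratio of 1.02 (0.982 to 1.05). The iRFP transcript was lower on plate 2, at a ratio of 0.452. With 1 plate per iRFP sort there is no test of this difference.

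Across single cells Cry1 was the more uneven transcript. At least 1 count of Cry1 was found in 78.6% of plate 1 cells and 79.7% of plate 2 cells, and of Cry2 in 92.7% and 86.0%. The coefficient of variation of CPM over cells was 1.12 and 1.16 for Cry1 against 0.751 and 0.856 for Cry2. The tenth of cells with most Cry1 held 37.1% and 38.5% of all its counts, and for Cry2 26.3% and 28.7%. Cry1 also had fewer counts, 4357 and 5445 against 6692 and 6815 for Cry2, and the part of this in the gap was not tested. In gate 1 of plate 2 the genes stood closer, at 13.3 CPM for Cry1 and 14.4 CPM for Cry2. Detection there was 70.5% and 73.7%, and the coefficient of variation 1.29 and 0.965. Use of molecular identifiers is not given in the sources used here, so spread from amplification cannot be told apart from spread between cells.

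Detection was higher in gate 4 than in gate 1 for both genes. Cry1 was found in 72.6% of cells in gate 1 and 84.4% in gate 4 on plate 1, and in 70.5% and 87.2% on plate 2. Between them the Cry1 share was 81.3% in gate 2 and 76.0% in gate 3 on plate 1, and 86.2% and 75.0% on plate 2, so it did not climb at each step. For Cry2 the shares were 89.5% and 96.9% on plate 1 and 73.7% and 96.8% on plate 2. After thinning each cell to 697542 counts the Cry1 shares were 71.8% and 87.0% on plate 1 and 73.5% and 87.1% on plate 2, so the outer gates differed at equal depth too. A cell type lacking either gene was not among the cells sorted, so no background share is given.

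Most cells held both transcripts. Plate 1 had 282 cells with both, 19 with only Cry1, 73 with only Cry2 and 9 with neither. Plate 2 had 267, 35, 59 and 18 such cells. The rank correlation (Spearman) of the paralogs over cells was 0.117 on plate 1 and 0.127 on plate 2 (n = 383 and 379 cells). After ranking inside gates it was 0.0767 and 0.102, with 6 of 8 gates positive. These are weak values between sparse counts that share each cell's depth, and they carry no test.

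Inside a gate the sort limits the range of Venus protein, but cells still differ in reporter mRNA, and along that mRNA the paralogs differed. The cells of each gate were ranked by YFP CPM and divided into a lower and an upper part of equal size, which gave 8 paired comparisons. On plate 1, Cry1 stood at 14.4, 15.5, 18.9 and 17.6 CPM in the lower parts of gates 1 to 4 and at 8.57, 11.1, 9.37 and 13.3 CPM in the upper parts. On plate 2 the lower parts held 15.9, 27.9, 23.6 and 21.8 CPM and the upper parts 9.40, 8.85, 11.1 and 16.2 CPM. Cry1 was lower in the cells with more reporter mRNA in 8 of 8 gates, by 1.32-fold at the least (gate 4 of plate 1) and 3.15-fold at the most (gate 2 of plate 2).

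Cry2 differed less in the same comparison. On plate 1 it stood at 15.4, 18.6, 24.9 and 28.2 CPM in the lower parts and 14.8, 17.8, 19.6 and 28.2 CPM in the upper parts. On plate 2 it stood at 16.9, 21.2, 21.2 and 29.9 CPM against 11.8, 19.7, 21.6 and 27.1 CPM. It was lower in the upper part in 6 of 8 gates, with the widest gap in gate 1 of plate 2.

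**Figure D2:**
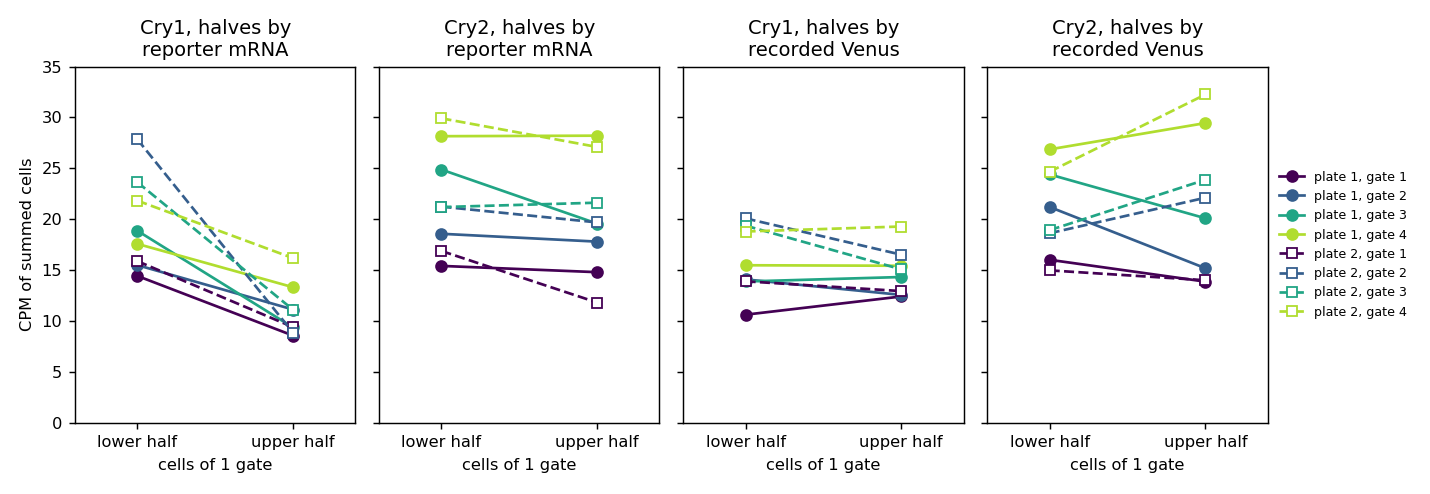
CPM of summed cells in the lower and upper part of each gate, with cells ranked by reporter mRNA (first and second panel) or by recorded Venus fluorescence (the other panels); each line is 1 gate of 1 plate, filled for plate 1 and open for plate 2, and there are no error bars. All 8 Cry1 lines run downward with reporter mRNA, Cry2 lines are flatter, and lines for recorded Venus go both ways.

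The Cry1 difference between upper and lower parts was -0.80 ± 0.13 log2 (SE), with an unadjusted p of 4.73e-05 and an adjusted p of 0.0679 over 14836 genes by edgeR, so Cry1 was not called. Cry2 differed by -0.13 ± 0.07 log2 (adjusted p 0.547, edgeR). Neither member was called, and 3 genes were (0.0202% of those tested), namely Nr1d1, Bmf and ENSMUSG00000142959.1, of which the last pair is named here after their values were seen. The YFP feature that defined the parts itself differed by 1.63 ± 0.23 log2 with an adjusted p of 0.0515 by edgeR, so the transcript used for ranking was not called either.

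Of 12 tested alternatives, 4 gave Cry1 a call and 8 did not. The adjusted p was 0.0228 for the upper against the lower of 3 equal parts (-1.07 log2, edgeR), 0.0357 with cells thinned to equal depth (-0.83 log2, edgeR), 0.00143 without a filter on low counts (edgeR, 132 genes called) and 1.86e-07 with DESeq2 (266 genes called). Without the dimmest gate it was 0.231 (-0.83 log2, edgeR). With 3 equal parts, Cry1 stood higher in the lowest than in the middle part in 8 of 8 gates, and was ordered from the lowest to the highest part in 5 of 8. Plate 1 alone gave -0.65 log2 and plate 2 alone -0.96 log2, with no test.

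The difference between the paralogs was tested directly. Cry2 minus Cry1 was 0.67 log2 on average over the 8 gates, positive in 8 of 8 and between 0.24 and 1.54 in each. An exact two-sided sign-flip permutation over the 8 gates (256 arrangements) gave p = 0.00781, the smallest it allows, and 0.0117 after adjustment over the 3 paralog contrasts. The difference was 0.69 log2 in the cells low in both cycling sums, with an adjusted p of 0.0234 by the same exact permutation test. The 8 gates came from only 2 plates. The contrast was chosen with the negative correlation of Cry1 with reporter mRNA inside gates already known, so these p-values are no independent support.

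Other measures were compared between the same parts. The ratio of median depth, upper over lower, lay between 0.970 and 1.05. Median Venus fluorescence was higher in the upper part in 8 of 8 gates, with a median ratio of 1.20, so Venus was not matched between the parts. The gap varied between gates. In gate 1 of plate 1 the medians were 919550 in the lower and 975683 in the upper part, and in gate 2 of plate 1 2107190 and 3077884. In gate 2 of plate 2, where the Cry1 gap was widest, the median S phase sum over cells was 219 CPM in the lower and 285 CPM in the upper part. In gate 3 of plate 2 the median G2/M sum was 56.3 and 79.8 CPM. The median S phase and G2/M sums were each higher in the upper part in 5 of 8 gates, with median ratios of 1.04 and 1.05. With cells low in both cycling sums, the Cry1 difference was -1.10 ± 0.20 log2 (adjusted p 0.324, edgeR). In the same cells the Cry2 difference was -0.40 ± 0.11 log2 (unadjusted p 0.0022, adjusted p 0.687, edgeR), larger than the -0.13 log2 over all cells.

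Ranked by recorded Venus fluorescence instead, the cells of a gate showed no such gap. This ranking separated reporter mRNA less. The YFP feature differed by 0.44 ± 0.07 log2 between brighter and dimmer parts, against 1.63 ± 0.23 log2 between the parts by reporter mRNA. Cry1 stood at 10.6, 14.1, 13.9 and 15.5 CPM in the dimmer parts of plate 1 and at 12.4, 12.6, 14.3 and 15.4 CPM in the brighter parts. On plate 2 it stood at 13.9, 20.1, 19.4 and 18.8 CPM against 12.9, 16.5, 15.1 and 19.3 CPM. It was lower in the brighter part in 5 of 8 gates and higher in 3, so the direction was mixed.

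Cry2 went opposite ways on the plates. On plate 1 the dimmer parts held 16, 21.2, 24.4 and 26.9 CPM and the brighter parts 13.9, 15.2, 20.1 and 29.5 CPM. On plate 2 they held 15, 18.6, 18.9 and 24.7 CPM against 14, 22.1, 23.9 and 32.3 CPM. It was lower in 3 of 4 gates on plate 1 and higher in 3 of 4 on plate 2.

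By edgeR, Cry1 differed by -0.071 ± 0.072 log2 between brighter and dimmer parts (adjusted p 0.965) and Cry2 by 0.014 ± 0.10 log2 (adjusted p 0.999). No gene of 14850 was called by edgeR (0.00%), 788 had an unadjusted p under 0.05, and DESeq2 called 4. The paralog difference was 0.081 log2, with an exact permutation p of 0.586, and was -0.23 on plate 1 and 0.40 on plate 2. These values do not show that the paralogs act alike with Venus inside gates.

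The cells of a plate were also ranked without regard to gate. Dividing each plate into 8 equal groups by reporter mRNA, Cry1 stood at 15.2 CPM in the lowest and 12.8 CPM in the highest group of plate 1, and at 16.1 and 15.9 CPM on plate 2, where the third group peaked at 22.6 CPM. Cry2 went from 15.6 to 29.2 CPM on plate 1 and from 17.6 to 26.6 CPM on plate 2. With cells grouped by recorded Venus, Cry1 went from 10.6 to 15.4 CPM and from 13.9 to 19.4 CPM, and Cry2 from 16 to 29.5 CPM and from 15 to 32.0 CPM. Cry2 was thus higher at the top of either ranking, Cry1 only at the top of the Venus ranking on both plates, and these groups carry no test.

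**Figure D3:**
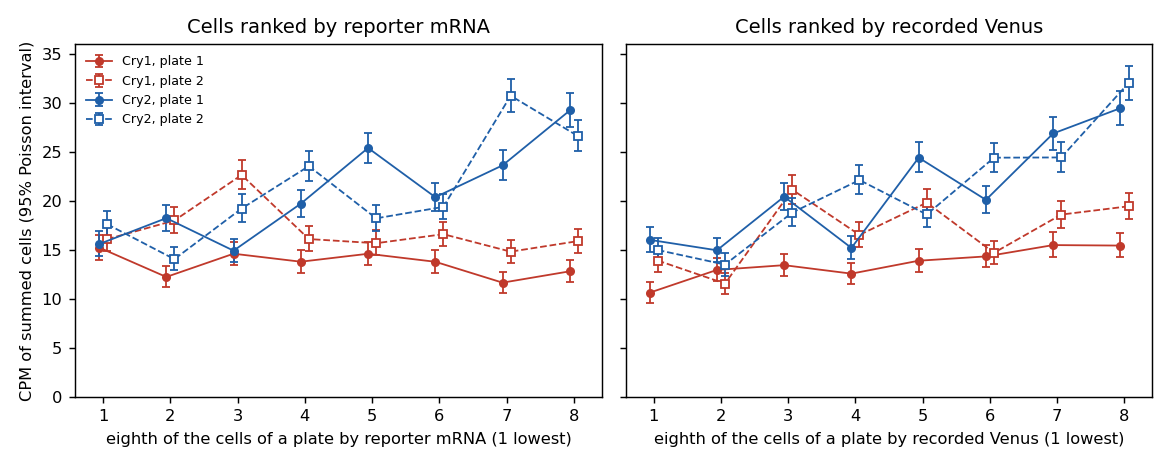
CPM of Cry1 (red) and Cry2 (blue) in 8 equal groups of the cells of a plate, ranked by reporter mRNA (left) or recorded Venus (right), with 95% Poisson intervals that cover counting error only; plate 1 is filled and plate 2 open. Cry2 ends near 27 to 32 CPM in both panels, while Cry1 ends at 12.8 and 15.9 CPM by reporter mRNA and at 15.4 and 19.4 CPM by Venus.

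The correlations over cells gave the same picture as descriptions. Between Cry1 and YFP, Spearman's correlation was -0.0086 on plate 1 and -0.0544 on plate 2 over all cells, and -0.259 and -0.342 after ranking inside gates. It was negative in each of the 8 gates, between -0.517 and -0.153. Between Cry2 and YFP it was 0.256 and 0.222 over all cells, and -0.051 and -0.087 inside gates. The Cry1 value lay below the Cry2 value in 8 of 8 gates.

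With recorded Venus, Cry1 stood at 0.130 and 0.0775 over all cells and at 0.069 and -0.0862 inside gates. Cry2 stood at 0.269 and 0.292 over all cells and at -0.101 and 0.0529 inside gates. Reporter mRNA and Venus themselves correlated at 0.908 and 0.907 over all cells and only at 0.313 and 0.300 inside gates. All of these pairs share the cell, and those between transcripts share its depth. Correlation with total counts lay within 0.05 of 0 for both cryptochromes.

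Among the clock regulators (14 genes of the activating, repressing and D-box branches, all tested along the gates), 8 were called higher and 2 lower over the Venus gates. Over all genes tested, 6.78% were called higher and 8.64% lower. The median trend of the regulators was 0.40 log2 per step, against 0.00051 over all genes tested. Nr1d1 is 1 of the 8, and the gates were sorted on a reporter named for it. Its row can also hold reads of the reporter construct, so its rise along the gates is no independent result. The REV-ERB genes Nr1d1 and Nr1d2 rose by 1.38 and 0.64 log2 per step, the D-box activators Dbp and Tef by 0.74 and 0.54, and the repressor gene Ciart by 0.87. Arntl, whose product is the partner of CLOCK, fell by 0.72 log2 per step, and Nfil3, a D-box repressor, fell by 0.41. The Cry2 slope of 0.29 was close to those of Rora (0.27) and Bhlhe40 (0.22), and the Cry1 slope was smaller than that of each of the 8 regulators that rose.

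Of 7 partners of the repressor complex, 4 were called higher and none lower by edgeR (6.78% and 8.64% of all genes tested), where 5 had an unadjusted p under 0.05 upward and 1 downward. Per1, Per2 and Per3, which code for the PER proteins that bind cryptochromes, rose by 0.36, 0.70 and 0.52 log2 per step. Cipc, a CLOCK-interacting repressor, rose by 0.14. The kinase genes Csnk1d and Csnk1e, whose products phosphorylate PER, stood at -0.03 and -0.11, and Timeless at 0.19, none of them called.

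Most genes of cryptochrome turnover were not called. Of 14 tested, 1 was called higher and none lower by edgeR, a share near the 6.78% called higher over all genes, with 3 and 2 at an unadjusted p under 0.05 and a median trend of 0.02 log2 per step. Fbxl21 stood at -0.37 ± 0.12 log2 per step (adjusted p 0.0862, edgeR). Usp2 and Usp7, deubiquitinases that act on cryptochromes, stood at 0.16 and 0.04 log2 per step, and the AMPK subunit gene Prkaa1 at 0.08, none of them called.

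Inside gates by reporter mRNA, Nr1d1 was 1.28 ± 0.08 log2 higher in the upper part (adjusted p 2.21e-05, edgeR). It can hold reads of the reporter construct, and it correlated with YFP inside gates at 0.923 and 0.907, so Nr1d1 is close to the ranking variable itself. Of the 12 regulators and 7 partners tested there, no other was called. Per2 stood at -0.83 ± 0.28 log2 (adjusted p 0.305) and Timeless at -0.72 ± 0.25 log2 (adjusted p 0.328), by edgeR, both of a size near that of Cry1 but with wider errors. Dbp, Tef and Nr1d2 stood at 0.17, -0.04 and 0.17 log2.

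The same clock list was followed over single cells. Inside gates, Cry1 correlated with Per2 at 0.160 and 0.246, positive in 8 of 8 gates, with Nfil3 at 0.0786 and 0.170, and with Nr1d2 at -0.158 and -0.0957. Cry2 correlated with Per3 at 0.113 and 0.208, with Per1 at 0.138 and 0.109, with Tef at 0.0930 and 0.143 and with Ciart at 0.120 and 0.145, the last positive in 8 of 8 gates. Cry2 also correlated with Nfil3, at 0.0975 and 0.129, and with Per2, at 0.0563 and 0.167. Per3 was positive with Cry1 too, at 0.0794 and 0.0823, in 6 of 8 gates against 7 of 8 for Cry2. Of 21 clock genes, 7 were positive and 9 negative with Cry1 on both plates, and 11 positive and 3 negative with Cry2. The values run from -0.353 to 0.246 for Cry1 and from -0.0941 to 0.208 for Cry2, and the differences between paralogs were not tested here.

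**Figure D4:**
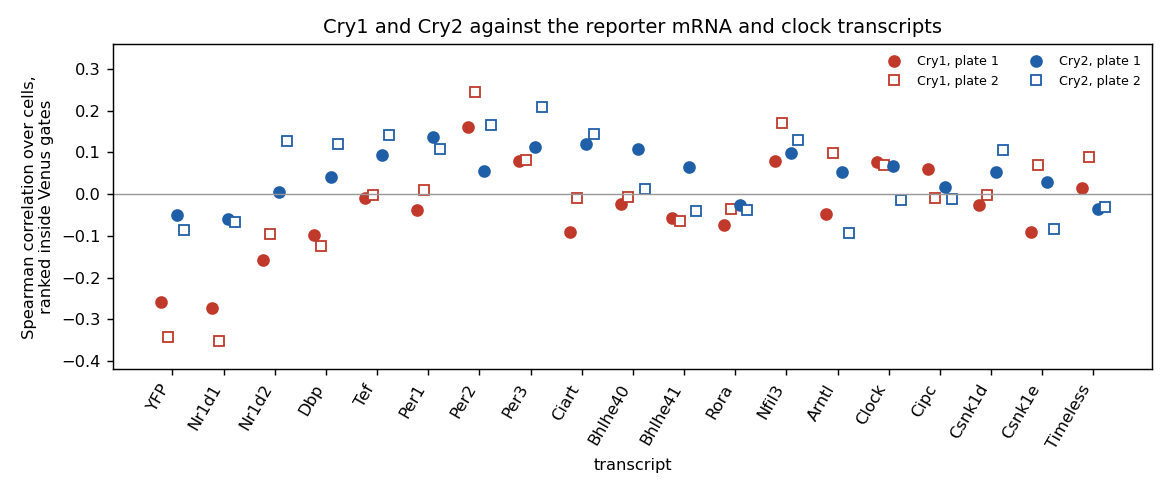
Spearman correlation over cells, after ranking inside Venus gates, of Cry1 (red) and Cry2 (blue) with the reporter transcript YFP and 18 clock transcripts, with plate 1 filled and plate 2 open and no error bars. Cry1 lies lowest against YFP and Nr1d1 (-0.259 to -0.353) and highest against Per2, while Cry2 lies above 0 on both plates against Per1, Per2, Per3, Tef and Ciart.

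Cry1 also went with the sum of S phase transcripts, at 0.205 on plate 1 and 0.0976 on plate 2 inside gates, positive in 6 of 8 gates. For Cry2 these values were -0.0817 and 0.0222. Thinned to equal depth, the Cry1 values were 0.196 and 0.107.

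The genes most like each paralog were sought over 8236 well-detected genes, by the smaller of the correlations on the 2 plates, ranked inside gates. For Cry1 they were Snu13 (0.197 and 0.181), Dnaja2 (0.179 and 0.204), Mthfd1l (0.176 and 0.227), Dtymk (0.181 and 0.174) and Ipo5 (0.225 and 0.168). Snu13 codes for a protein of box C/D ribonucleoproteins and the spliceosome, Dnaja2 for an HSP70 co-chaperone, Mthfd1l for a mitochondrial enzyme of folate metabolism, Dtymk for thymidylate kinase and Ipo5 for an importin. Among the most unlike were Nr1d1 (-0.272 and -0.353) and Pde4dip (-0.195 and -0.177).

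For Cry2 the most alike were Carhsp1 (0.227 and 0.214), Tpcn1 (0.192 and 0.163), Adam15 (0.162 and 0.191), Dnaja3 (0.153 and 0.165) and Thy1 (0.149 and 0.154). Tpcn1 codes for an endolysosomal cation channel, Adam15 for a membrane metalloprotease, Dnaja3 for a mitochondrial co-chaperone and Thy1 for a surface glycoprotein of fibroblasts. The most unlike were Prdx4 (-0.159 and -0.184), Ddx17 (-0.164 and -0.159) and Sh3bgrl (-0.166 and -0.154). No gene stood on the lists of both paralogs, and all values are weak and picked as extremes of 8236 genes.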

How the data were processed

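The authors deposited raw counts per gene and cell for 2 plates of single cells, and fluorescence and scatter intensity values per cell from the sorter. Per the submitters' processing notes, STAR 2.7.11a, SAMtools, bedtools and HTSeq were used with GRCm39 (mm39). Strand setting and any use of molecular identifiers are not given in the sources used here, so intervals cover counting error only.

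Cells with at least 1000 genes, at least 0.1 of the plate median total and at most 25% mitochondrial counts were kept. No cells held identical counts, and with 1 sorted cell per well no doublet caller was run. Counts were summed per plate and gate (8 sums), or per plate, gate and equal part (16 sums). Sums were fitted with edgeR 4.0.16 in R 4.3.3 (TMM, filterByExpr, quasi-likelihood test, Benjamini-Hochberg over all genes tested, threshold 0.05). The trend model held the 4 gates and the plate, with weights of 3 and 1 divided by 10 for outer and inner gates. The model for parts held plate and gate as blocks. DESeq2 1.42.0 was an alternative. The fits were tested on simulated data. Poisson and binomial intervals are exact, at 95%.

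Same-numbered sums share a plate, which is why plate entered each fit. Genes named were the members, the reporter features, Nr1d1, the fixed lists, and per paralog the 5 most alike and 3 most unlike genes with at least 10 CPM and detection in at least 50% of cells. The members, the lists and the tests were chosen with earlier results of these data known, among them the negative correlation of Cry1 with reporter mRNA inside gates, so that pattern is no independent support. Of 33757 features, 24902 matched a symbol. Symbols and lengths came from a GENCODE annotation of GRCm38 and promoters from RefSeq on GRCm38.p6. Of the genes this rule takes, 2 are not reported here by name.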

Additional observations from a re-analysis of the deposited data

How the results depend on the processing

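The Cry2 trend over the Venus gates stayed past the threshold in 11 of 12 tested alternatives, the exception being the additive linear model without gate 4 (0.28 log2 per step, adjusted p 0.0583, edgeR). The Cry1 trend kept its sign in all 12 and stayed past the threshold in 5. It was 0.13 log2 per step with no replicate block (adjusted p 0.159), 0.12 with the additive linear model (0.0703), 0.046, 0.14, 0.13 and 0.16 with that model without gates 1, 2, 3 and 4 (0.644, 0.0522, 0.131 and 0.240) and 0.021 in cells low in both cycling sums (0.911), all by edgeR. Genes called along the gates numbered 2843, and 1683 with no replicate block, 1858 with the additive linear model, 1003, 1143, 1209 and 237 without gates 1 to 4 and 560 in cells low in the cycling sums.

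Inside gates by reporter mRNA, Cry1 was past the threshold in 4 of 12 alternatives, with -0.80 log2 by DESeq2 and without a filter, -1.07 with 3 parts and -0.83 after thinning, and its values ran from -1.10 to -0.72. With no replicate block its adjusted p was 0.133 by edgeR. The 3 genes called became 5 without TMM, 266 with DESeq2, 132 without a filter, 9 with 3 parts, 19 after thinning, 0 with no replicate block (edgeR) and 1 in cells low in the cycling sums and without gate 2 or 3. By recorded Venus, the 0 genes called became 4 with DESeq2 and without a filter, and Cry2 turned to -0.017 with 3 parts, -0.031 after thinning or with the stricter cell filter and -0.077 without gate 4.

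Single plates ran from 0.11 to 0.14 log2 per step for the Cry1 trend, 0.28 to 0.29 for Cry2 and were 0.16 each for their difference. By reporter mRNA they ran from -0.96 to -0.65 log2 for Cry1, from -0.16 to -0.10 for Cry2 and from 0.54 to 0.80 for the difference. By recorded Venus they ran from -0.16 to 0.019 log2 for Cry1, from -0.21 to 0.24 for Cry2 and from -0.23 to 0.40 for the difference. The settings without a gate, other than that without gate 1 for the parts, and those on cycling sums were chosen after seeing the data. The paralog contrasts along the gates and by reporter mRNA kept direction and side of the threshold in 4 of 4 tested alternatives each, and the 5 correlations inside gates moved by less than the SD between plates. The design holds 2 plates, so the spread between cultures is not measured.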
